A study of Homo sapiens with 4 samples.

Results

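The regions described are the 5′-most peaks of genes that carried many peaks in PRMT5 RNA immunoprecipitation sequencing (RIP-seq). The peaks assigned to a single gene identifier were ordered from 5′ to 3′ in each gene with 4 or more of them on one chromosome and strand, and the 5′-most peak was kept where it was 26 to 5000 nt wide. This gave 977 peaks, 1 per gene, which are 5.14% of the 18993 peaks in the list. Of 1320 such genes, 123 were left out because the 5′-most peak was narrower than 26 nt and 220 because it was wider than 5000 nt. The choice used position, peak number and width, and no measured level.

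The study asked how PDCD1, the gene of the receptor PD-1, is regulated at the RNA level in T cells. RIP-seq was among its assays and listed RNAs that interact with PRMT5. Jurkat cells, a human T cell leukemia line, were stimulated with PHA, a plant lectin that activates T cells, for 48 hours and UV-crosslinked, and these steps were common to both groups. The PRMT5 RIP group and the input group, lysate RNA without immunoprecipitation, had 2 libraries each. The RIP method of the study, described for qPCR, used an antibody against PRMT5, and whether the sequencing used the same one and how many cultures lay behind the libraries is not given in the sources used here. No control IgG library was analysed. The list holds 1 pooled value per group at each peak, in RPM (reads scaled to the library total), so no spread between libraries could be computed, no test was possible and every comparison below is a description. The list is the output of a peak caller set on PRMT5 RIP against input, so high ratios were favoured by the listing itself, and all 977 had the caller's FDR at or below 0.01. Limiting the list to that FDR before the rule was applied gave 975 members. The share of all peaks at that FDR is not given here, so it is not read as a trait of the members. Of the 10 T cell marker genes looked up by symbol, 7 had a peak, led by CD3D with 417 RPM in input, whereas of the 4 B cell markers only CD79A had one, with up to 21.9 RPM, and none of the 4 myeloid or 4 epithelial markers had one.

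PRMT5 is an arginine methyltransferase that works with WDR77 and is known for methylating histones and splicing proteins. The 5′ end of an mRNA carries the cap and the untranslated leader, on which initiation factors and the small ribosomal subunit assemble. In most human housekeeping genes it is transcribed from a CpG island, and mRNAs of the translation machinery begin with a C followed by a run of pyrimidines, the 5′ terminal oligopyrimidine (TOP) motif, through which their translation is controlled by growth signals.

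RefSeq starts (GRCh38.p14) were available for 750 of the 977 peaks, and the sequences below show where the peaks began. Each runs from 50 bases before the start to 30 bases after it, 5′ to 3′ on the coding strand, and the start is the base after the first 50. Capitals mark the bases inside the peak. The 5 ribosomal protein genes shown here are those of the named genes whose start read as a C followed by 4 pyrimidines.
RPL28 (chr19:55385882-55385961, plus strand): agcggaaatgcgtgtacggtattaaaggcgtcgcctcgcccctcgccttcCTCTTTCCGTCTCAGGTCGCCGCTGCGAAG
RPS9 (chr19:54200808-54200887, plus strand): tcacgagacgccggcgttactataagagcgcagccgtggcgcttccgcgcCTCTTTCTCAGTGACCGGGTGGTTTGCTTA
RPS21 (chr20:62387053-62387132, plus strand): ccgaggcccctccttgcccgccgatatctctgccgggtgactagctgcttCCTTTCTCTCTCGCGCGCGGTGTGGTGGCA
RPLP0 (chr12:120201082-120201161, minus strand): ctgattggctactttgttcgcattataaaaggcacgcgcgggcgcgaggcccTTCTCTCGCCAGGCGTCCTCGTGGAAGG
RPS6 (chr9:19380207-19380286, minus strand): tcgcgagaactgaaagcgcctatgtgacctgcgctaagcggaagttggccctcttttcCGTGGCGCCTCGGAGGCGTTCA

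In RPL28, RPS9 and RPS21 the 5′ edge of the peak fell on the start itself, so that the pyrimidines from the start on were inside the peak. In RPLP0 and RPS6 it fell 2 nt and 8 nt downstream, within the run. The same windows follow for 6 other genes whose peaks are described below, of which none began with this motif.
TPM4 (chr19:16076445-16076524, plus strand): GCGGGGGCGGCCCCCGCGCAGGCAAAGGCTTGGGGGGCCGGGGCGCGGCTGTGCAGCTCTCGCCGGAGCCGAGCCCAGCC
SF1 (chr11:64778513-64778592, minus strand): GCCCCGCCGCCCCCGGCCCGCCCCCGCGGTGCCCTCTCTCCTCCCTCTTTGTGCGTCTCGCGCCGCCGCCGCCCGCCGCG
RNASEH2B (chr13:50909741-50909820, plus strand): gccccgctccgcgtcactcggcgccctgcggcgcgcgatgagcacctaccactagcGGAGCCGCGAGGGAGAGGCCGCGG
MYL6 (chr12:56158309-56158388, plus strand): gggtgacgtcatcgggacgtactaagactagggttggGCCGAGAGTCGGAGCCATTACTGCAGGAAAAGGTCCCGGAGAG
HMGN2 (chr1:26472390-26472469, plus strand): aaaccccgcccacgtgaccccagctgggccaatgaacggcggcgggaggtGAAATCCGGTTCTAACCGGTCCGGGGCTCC
PRMT5 (chr14:22929347-22929426, minus strand): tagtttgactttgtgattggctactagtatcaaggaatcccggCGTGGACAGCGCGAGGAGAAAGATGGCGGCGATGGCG

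The peaks of TPM4 and SF1 covered the whole window and began 324 nt and 227 nt upstream of the listed start. Those of MYL6 and PRMT5 began 13 nt and 7 nt upstream, that of HMGN2 began on the start and that of RNASEH2B 6 nt downstream.

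Across the 750 peaks with a listed start, 240 (32.0%) covered it, 566 (75.5%) lay within 100 nt of it and 658 (87.7%) within 500 nt. The label of a 5′-end peak therefore held for most members by position, and the 658 are called peaks at a start below. Their 5′ edge lay a median of 10 nt downstream (interquartile range -6 to 50 nt), and 315 (47.9%) had it within 25 nt. Their 3′ edge lay a median of 362.5 nt downstream, and 386 (58.7%) ended within 500 nt of the start. Part of the edges lay on a step. Of the 464 peaks at a start whose 5′ edge lay on it or downstream, 174 (37.5%) lay an exact multiple of 25 nt away, 75 of them on the start itself, and among 3837 other peaks at a start the share was 34.5%. For these edges the distance from a start is no finer than that step. Peaks whose edge fell exactly on a start had a median log2 ratio of 1.63, against 1.51 for the other peaks at a start.

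**Figure D1:**
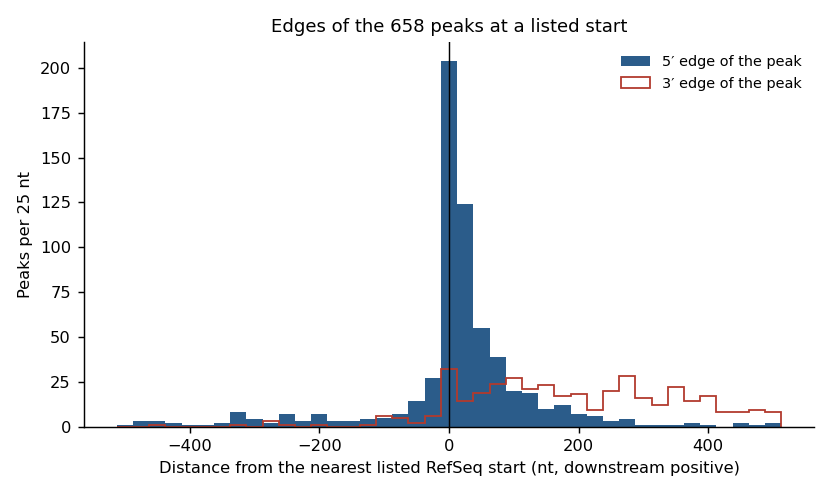
Number of the 658 peaks at a listed start (vertical axis, per 25 nt) by the distance of the 5′ edge (filled) and of the 3′ edge (line) from the nearest RefSeq start (horizontal axis, nt). The 5′ edges pile up at the start, with a median of 10 nt, whereas the 3′ edges are spread with a median of 362.5 nt, and edges beyond the axis are not drawn.

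The peaks away from a start were fewer. Of them, 78 lay more than 500 nt downstream, a median of 7350 nt and at most 116214 nt, and 14 lay more than 500 nt upstream. PDCD1, which encodes the inhibitory receptor PD-1, was among them, with its 5′-most peak of 292 nt 6254 nt downstream of the listed start. The peak of CDK5RAP2, a centrosome protein, lay 41048 nt downstream. The peaks of RUNX1, a transcription factor of blood cells, and PSMA1, a proteasome subunit, lay 160162 nt and 123087 nt upstream of any start listed for the gene on that strand. The listed starts are not complete, and whether these peaks lie at unlisted starts was not tested.

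The level of a peak is given as RPM in the pooled PRMT5 RIP libraries and in the pooled input libraries, and enrichment as the log2 ratio of PRMT5 RIP over input after 0.01 RPM was added to each. The 977 peaks had a median of 2.69 RPM in PRMT5 RIP (0.13 to 1010) compared with 0.90 RPM in input (0.01 to 1630). The median log2 ratio was 1.48 (interquartile range 1.00 to 2.09), compared with 1.10 over all 18993 peaks. At 2-fold or more, a log2 ratio of at least 1, stood 735 of the 977 peaks (75.2%), against a background of 55.8% over the whole list. With a pseudocount of 1 RPM these shares were 34.1% and 18.5%, and the medians 0.76 and 0.46. At 4-fold stood 283 (29.0%, list 15.2%) and at 8-fold 63 (6.45%, list 2.50%). Only 13 (1.33%, list 3.84%) had fewer RPM in PRMT5 RIP than in input. By the peak caller's own log2 fold change none of the 977 was below 0 (lowest 0.04).

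Enrichment was higher where input was lower. Members under 0.5 RPM in input had a median log2 ratio of 1.87, those from 0.5 to under 2 RPM 1.46, those from 2 to under 10 RPM 1.14 and those at 10 RPM or more 0.83. The whole list took the same order, with 1.44, 1.08, 0.83 and 0.65, and the members were above the list in each class. Across the 977 peaks the log2 ratio and log2 input had Pearson's r = -0.45 and Spearman's rho = -0.44. Both axes hold the input value, all points come from the same pooled libraries, and genes are not independent replicates. Among the 458 members with at least 1 RPM in input, 278 (60.7%) reached 2-fold, against 39.8% of all peaks with that input.

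Among members with a symbol and at least 1 RPM in input, the largest enrichment was at TPM4, which encodes a tropomyosin of actin filaments. Its 846-nt peak stood at 62.5 RPM after PRMT5 RIP against 4.94 RPM in input (log2 ratio 3.66). Next came RPL28 with 90.3 and 7.37 RPM (3.61) and RPS9 with 19.1 and 1.61 RPM (3.56), proteins of the large and the small ribosomal subunit. RNASEH2B, a subunit of RNase H2, had 36.3 and 3.20 RPM (3.50). SHISA2, which restrains Wnt and FGF signaling, and SOX12, a transcription factor, had log2 ratios of 3.24 and 3.21. SF1, which recognizes the intron branch point, followed with 3.16, and MYL6, a myosin light chain, with 3.07. These 8 peaks were each the most enriched of their gene and each lay at a listed start. Of the 87 members without a symbol, 2 had ratios within this range (3.46 and 3.13). Without a symbol these 2 could not be matched to a listed start, and the first was second in its gene. The peaks of TPM4 and RNASEH2B overlapped a peak on the other strand, as 187 of the 977 did (19.1%, list 18.1%), and the share of reads that belongs to each strand's gene was not tested.

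The smallest ratios were at transcripts of high abundance. COX1, the mitochondrial gene of cytochrome c oxidase subunit 1, had 1010 and 1630 RPM in PRMT5 RIP and input (-0.69), and RNR2, the large mitochondrial ribosomal RNA, 26.1 and 31.3 RPM (-0.26). RPLP0, a protein of the ribosomal stalk, had 27.7 and 34.2 RPM (-0.30), and CCT3, a subunit of the cytosolic chaperonin, 6.79 and 8.13 RPM (-0.26). TUBA1A, an alpha tubulin, had 6.89 and 7.69 RPM (-0.16). These 5 peaks were not enriched by RPM although they were listed as called. The peak caller's own log2 fold change was above 0 at all 5, from 0.04 at COX1 to 0.56 at TUBA1A. After COX1 the highest RPM in PRMT5 RIP was at RPS15, with 845 RPM against 254 RPM in input (1.73). RPS21 had 427 and 260 RPM (0.71), HMGN2, a nucleosome-binding protein, 249 and 66.5 RPM (1.91), and RPS6, the ribosomal protein phosphorylated after growth signals, 187 and 51.5 RPM (1.86). A member without a symbol had 188 and 98.9 RPM. RPL13AP5, with 179 and 158 RPM (0.18), is a pseudogene. Ribosomal protein genes, GAPDH, HMGN2, TUBA1A, EIF3C and IKBKG have near-identical copies in the genome, so their values are uncertain.

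**Figure D2:**
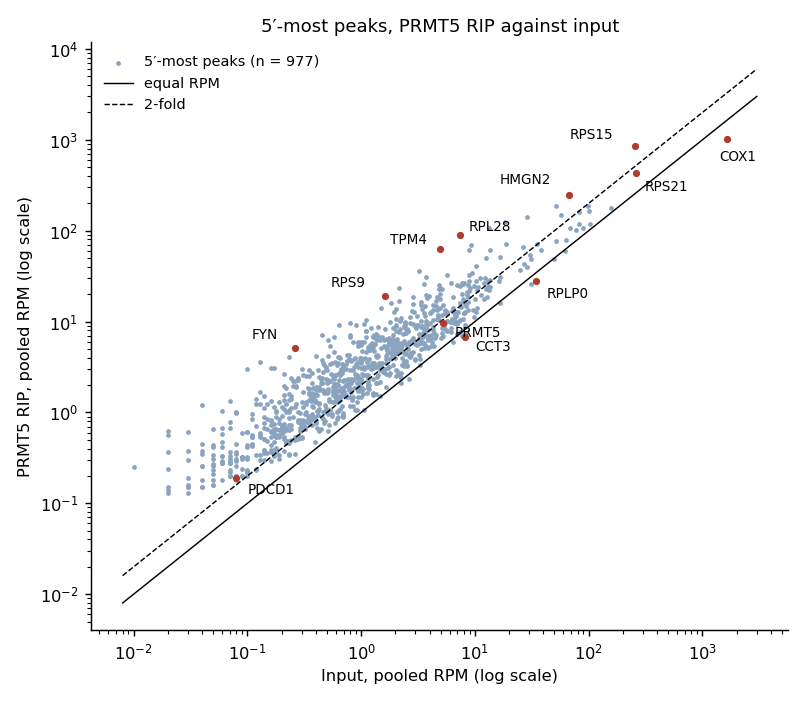
Pooled RPM in PRMT5 RIP (vertical, log scale) against pooled RPM in input (horizontal, log scale) for the 977 peaks, each point 1 peak, with lines at equal RPM and at 2-fold and the named peaks in red. Of the peaks, 735 were at 2-fold or more after the pseudocount, among them TPM4, RPL28 and RPS9, whereas COX1, RPLP0 and CCT3 lie below the line of equal RPM.

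The 5′-most peak was then set beside the other peaks of its gene. The median log2 ratio was 1.48 at the 5′-most peak, 0.95 at the next one, 0.80 at the peak after that and 0.84 at the fourth, and it was 0.91 at the 3′-most peak. The fall was thus between the 5′-most peak and the next, and the later positions stood within 0.80 to 0.95. The share at 2-fold was 75.2% at the 5′-most peak, 48.3% at the next and 45.3% at the 3′-most. Per kb of peak span, PRMT5 RIP was not highest at the 5′ end, with a median of 8.30 RPM per kb there, 7.40 at the next peak, 10.0 at the fourth and 10.4 at the 3′-most. Input per kb rose along the gene more steeply, with medians of 2.33, 2.80, 4.90 and 5.20 RPM per kb. Over whole peaks, not per kb, median RPM in PRMT5 RIP was 2.69 at the 5′-most peak, 1.64 at the next and 1.60 at the 3′-most, and in input 0.90, 0.77 and 0.79. The spans of wide peaks can hold introns and the median width fell from 350 nt at the 5′-most to 175 nt at the 3′-most peak, so levels per kb are a rough guide.

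**Figure D3:**
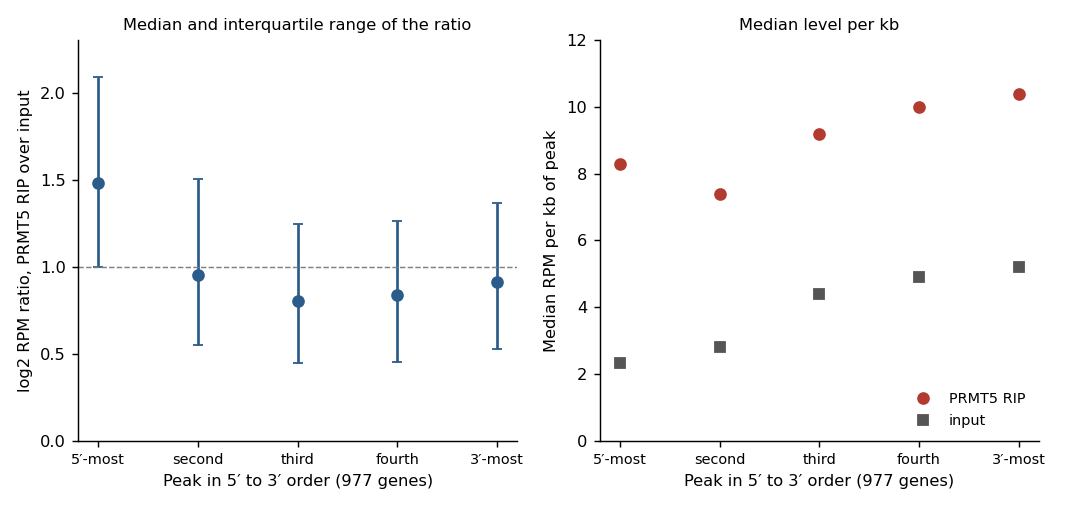
Left, median log2 RPM ratio of PRMT5 RIP over input by position of the peak in its gene, with bars for the interquartile range over 977 genes and a dashed line at 2-fold. Right, median RPM per kb of peak in PRMT5 RIP and input. The 5′-most peak stands highest in ratio at 1.48 and lowest in input at 2.33 RPM per kb. The 3′-most peak is the one whose 3′ edge lies furthest 3′. In genes with 4 peaks it is the fourth, unless an earlier peak reaches further 3′, as in SMARCE1.

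Within genes, the 5′-most peak had a higher ratio than the next peak in 732 of 977 genes (74.9%), whereas among 4060 pairs of later neighbours, in all 1320 genes with 4 or more peaks, the more 5′ one was higher in 51.2%. In the 977 genes alone this was 52.0% of 2996 pairs. The median difference to the next peak was 0.48 and to the 3′-most peak 0.55. The 5′-most peak was the highest of all peaks in 507 genes (51.9%), the next one in 143 (14.6%) and the 3′-most in 143 (14.6%). It was the lowest in 67 (6.86%), and the 3′-most in 240 (24.6%). By RPM in PRMT5 RIP alone it was the highest in 313 genes (32.0%). In 382 genes it reached 2-fold while the 3′-most peak did not, in 90 the reverse was seen, in 353 both did, and in 152 neither did. In 147 genes it was the sole peak at 2-fold. In the 255 genes with at least 1 RPM in input at both ends, it was above the 3′-most in 192 (75.3%), with medians of 1.13 and 0.58, so the order was also seen where neither end was near 0. With the number of peaks per gene the share above the 3′-most peak went from 76.1% at 4 peaks (451 genes) to 73.6% at 5, 71.5% at 6 and 70.3% at 7 or more (128 genes).

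RNASEH2B, with 5 peaks, went from 3.50 at the 5′-most peak (36.3 and 3.20 RPM) to 0.77 at the 3′-most (2.11 and 1.23 RPM), which is the widest margin among named genes with at least 1 RPM in input at both ends. MYL6 had 3.07 and 0.35, ITM2C, a transmembrane protein gene, 2.51 and -0.11, and PDCD5, a gene tied to cell death, 2.41 and -0.21. In RPS15 the ratio was 1.73 at the 5′-most peak, 1.26, 0.86 and then -0.04 at the 3′-most, where both groups had over 640 RPM (642 and 659). The value of 1.26 rested on low levels, 0.35 and 0.14 RPM. HMGN2 had 1.91 at a 2763-nt 5′-most peak and -0.17, -0.35 and 0.23 at the later ones, each 25 nt wide.

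The opposite order was seen in SLC25A35, a mitochondrial carrier gene, with 0.27 at the 5′-most and 2.14 at the 3′-most peak. IKBKG, the regulatory subunit of the IκB kinase, had 0.36 and 1.88, and WDR46, which acts in ribosomal RNA processing, 0.29 and 1.51. These margins are among the widest in that direction under the same input limit. The 5′-most peaks of SLC25A35 and IKBKG overlapped a peak on the other strand and that of WDR46 did not. KEAP1 and SEPTIN9 had the most peaks, 13 each. In KEAP1, which targets NRF2 for degradation, the ratio was 1.97 at the 5′-most peak, where PRMT5 RIP and input were 0.42 and 0.10 RPM, and 0.10 to 0.77 at the other 12. SEPTIN9, a septin of the cytoskeleton, had 1.72 and 1.23 at its ends. GPR137, with 12 peaks, had 2.71 and 0.43, and SF3A1, a subunit of the U2 snRNP with 11, had 0.48 and 0.98.

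Position within the gene and nearness to a start were compared next. The 658 members at a start had a median log2 ratio of 1.52, the 92 away from one 1.15 and the 227 without a listed start 1.42. Of the 92, the 78 downstream had a median of 1.14, whereas the 14 upstream had 1.57 and were not below the members at a start. Those at a start were above the next peak in 79.3% of genes and above the 3′-most in 77.8%, those away from it in 54.3% and 64.1%. Single-peak genes, limited to peaks of 26 to 5000 nt with a listed start, showed a similar split, with 1.57 at a start (1269 peaks) and 1.37 away (428). So did the 5′-most peaks of genes with 2 or 3 peaks, with 1.61 (1295) and 1.11 (284). In the members' own genes, 233 later peaks lay at another listed start and had a median of 1.14, and 1930 lay elsewhere with 0.86. The 5′-most or only peaks at a start thus had a higher median than those away from one in genes of any peak number. The later peaks at a start, at 1.14, stood below the single peaks away from one, at 1.37. Within classes of input the members at a start and away from it had 1.87 and 1.63 under 0.5 RPM. From 0.5 to under 2 RPM they had 1.56 and 1.08, and from 2 to under 10 RPM 1.19 and 0.79. At 10 RPM or more the order turned, with 0.79 and 0.88, but only 3 members lay away from a start. The 29 members up to 500 nt upstream of a start overlapped a peak on the other strand in 44.8% of cases.

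The starts at members were rich in GC and CpG. In the 658 RefSeq windows, the 250 bases before the start had a median GC content of 68.4%, the first 50 transcribed bases 70%, and the window 10.3 CpG per 100 bases. Over all 34943 windows listed, these were 58%, 60% and 4.67, and at the 3867 starts under peaks of the other genes 66%, 68% and 9.33. The letters GGGCGG, the core of an Sp1 site, occurred on either strand in 82.2% of the windows at members, in 75.4% of those at other peaks and in 44.9% of all. CTTCCG, the core of an ETS site, occurred in 40.7%, 37.9% and 19.4%, CCAAT in 37.7%, 37.6% and 34.6%, and TATAAA in 3.65%, 5.22% and 11.6%. A C followed by 4 pyrimidines at the start, read on the coding strand, was found in 7.75% (51 windows), 6.15% and 4.06%, and the first 5 letters of CTTCCG can also be read as this pattern. A match describes the letters and no binding.

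Among the 658, enrichment went up with the GC content of the first 50 bases. Over 4 classes of increasing GC and near-equal size the median log2 ratio was 1.24, 1.52, 1.64 and 1.87, while input fell from 1.36 to 0.995, 0.87 and 0.74 RPM and PRMT5 RIP stayed between 2.92 and 3.31 RPM. Pearson's r between GC and log2 ratio was 0.25 (n = 658, across genes of the same pooled libraries). Divided at the median GC of 70%, members from 0.5 to under 2 RPM in input had 1.40 below it and 1.80 at or above it, those under 0.5 RPM 1.79 and 1.94, and those from 2 to under 10 RPM 1.16 and 1.28. The 3′-most peaks of the same genes had median log2 ratios of 0.79, 0.79, 0.89 and 1.02 over these 4 classes, so they were also higher at high GC. The 5′-most peak was above the 3′-most in 69.7% of genes in the lowest class of GC and in 83.6% in the highest. Whether GC content affected the recovery of reads in either group was not tested. The 51 members whose start had the pyrimidine motif had a median log2 ratio of 1.40 and 3.32 RPM in input, against 1.53 and 0.94 RPM for the other 607.

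Of the 890 members with a symbol, 116 were in 1 of 11 gene lists. The 87 members without a symbol could not be placed and may include genes of these kinds. The list counts below thus cover named members only. List counts at 2-fold are read against the 55.8% of all peaks and list medians against 1.10. Over all 977 members these were 75.2% and 1.48, and 74.0% stood above their 3′-most peak. A gene list can thus lie above all peaks and still below the members as a whole. Of 13 ribosomal protein members, 8 were at 2-fold (median 1.22), with a spread from RPL28 (3.61) to RPLP0 (-0.30). Of the 13, 11 were above their 3′-most peak, for which the median was 0.42, and all 11 with a listed start lay at it. Their median input was 34.2 RPM, a level at which 29.7% of all peaks and 37.9% of the members reached 2-fold. RPS7 and RPLP0 were the 2 of these 13 below their 3′-most peak, with log2 ratios of -0.07 and 0.58 at the ends of RPS7. Of 8 translation factors, 7 were at 2-fold (median 1.26). GSPT1, the release factor eRF3a, had 17.0 and 4.57 RPM (1.89), EIF3D 1.93 and 0.59 RPM (1.69), and EIF3L 1.46 and 1.00 RPM (0.54), the last 2 being subunits of the initiation factor eIF3.

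Of 24 splicing, hnRNP and SR factors, 13 were at 2-fold (median 1.18) and 13 were above the 3′-most peak. HNRNPU, a nuclear matrix RNA-binding protein, had 62.0 and 8.86 RPM (2.81), whereas HNRNPA1, NONO, HNRNPK and SF3A1 had log2 ratios between 0.38 and 0.53. Of 6 DEAD and DEAH helicases, 5 were at 2-fold (median 1.70). DHX37, which acts in ribosome assembly, had 3.26 and DHX30, a helicase of mitochondria, 1.87, while DDX5 had 3.31 and 3.32 RPM. DHX38 had 1.70 at its 5′-most and 3.31 at its 3′-most peak, and 3 of the 6 were above their 3′-most.

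All 12 chromatin regulators were at 2-fold (median 1.96), with a median input of 0.355 RPM. Under 0.5 RPM in input, 73.9% of all peaks and 91.4% of the members were at 2-fold, and the members' median was 1.87. SMARCE1, a BAF complex subunit, had 1.25 and 0.15 RPM (2.98) at its 5′-most peak and ratios from -0.16 to 0.00 at the other 3. CHD3, a remodeler of the NuRD complex, had 2.91, ARID1A 2.80 and BPTF 2.70. SMARCC2 was the lowest, with 0.39 and 0.17 RPM (1.15).

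Of 13 genes listed as T cell transcription factors, 8 were at 2-fold (median 1.57). TCF7 and LEF1, which govern T cell development, had 60.9 and 13.5 RPM (2.17) and, in PRMT5 RIP, 25.2 RPM (1.84), and their 3′-most peaks had 0.43 and -0.22. GATA3, SATB1 and IKZF1 stood between 2.03 and 2.12. RUNX1, TOX, TAL1 and RELA stood between 0.20 and 0.44. The largest ratio of the list, 4.08, was at NFATC2IP, which binds NFAT and is not itself a transcription factor of this family. Of 14 genes of T cell receptor signaling, 11 were at 2-fold (median 1.22) and 11 above the 3′-most peak. FYN, a Src-family kinase, had 5.10 and 0.26 RPM (4.24), CSK, the kinase that holds Src kinases inactive, 11.5 and 3.12 RPM (1.87), and ZAP70, the kinase recruited to the receptor, 4.26 and 1.39 RPM (1.61). IKBKG was the lowest at 0.36. In PDCD1 the 4 peaks had log2 ratios of 1.15, 1.50, 1.77 and 1.00 from 5′ to 3′, with at most 0.23 and 0.11 RPM in the 2 groups, so its 5′-most peak was not its highest and rested on low levels.

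Of 12 cell cycle and replication genes, 9 were at 2-fold (median 1.15), from E2F3, a transcription factor of S-phase genes (6.94 and 1.41 RPM, 2.29), and CDK5RAP2 (2.27) to MCM5, a subunit of the replicative helicase (0.78). All 5 ubiquitin and proteasome genes were at 2-fold (median 1.43) and above their 3′-most peaks, whose median was -0.04. USP10, a deubiquitinase, had 1.81, UBE2D3, a conjugating enzyme, 1.43, and PSMA1 1.09. Of 7 chaperone genes, 5 were at 2-fold (median 1.40), from the HSP40 proteins DNAJB1 (2.41) and DNAJC7 (2.07) to CCT3 (-0.26). In DNAJB1 the next peak, 8318 nt wide, was higher at 3.45. From the list of PRMT5 and its partners, PRMT6, another arginine methyltransferase, had 1.30 and 0.33 RPM (1.95), and PRMT5 itself 9.75 and 5.29 RPM (0.88), with 0.04, 0.02 and 0.93 at its later peaks. GAPDH, a glycolytic enzyme often used as a reference, had 61.0 and 38.2 RPM (0.67) at a 5′-most peak 673 nt upstream of the nearest listed start. The listed starts are not complete, and whether this peak lies at an unlisted one was not tested. The GAPDH peak of highest RPM had 1726 and 2060 RPM (-0.26). WDR77 had 4 peaks, and its 5′-most peak of 25 nt (0.27 and 0.17 RPM, 0.64) was below the width limit.

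The rule has limits on peak number and width, and peaks just inside and outside them had these values. Genes with exactly 4 peaks had a median log2 ratio of 1.52 (451) and genes with exactly 3 peaks 1.49 (786). The 82 members of 26 to 50 nt had 1.30 and the 123 peaks under 26 nt 1.28, with median input of 0.17 and 0.07 RPM. The 47 members of 4001 to 5000 nt had 1.26 and the 34 peaks of 5001 to 6000 nt 1.16.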

How the data were processed

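PRMT5 RIP and input libraries of PHA-stimulated Jurkat cells, 2 of each, were prepared with a strand-specific kit. Per the labels, the authors' processing used fastp, HISAT2 and hg38, and the peak caller, its annotation and the pooling of replicates are not given in the sources used here. The deposited list gives, for each peak, RPM rounded to 0.01 for the pooled PRMT5 RIP and the pooled input, and the depth per library is unknown. The deposited log2 fold change and the FDR, which is an adjusted p-value, are the authors' peak caller's values. They were used in alternatives and, where named, beside the ratios, and were not the source of the ratios given. Positions are given counting from 1, which moved each start up by 1.

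Enrichment was taken as log2 of RPM in PRMT5 RIP over RPM in input, each with a pseudocount of 0.01 RPM. Of the identifiers, 6774 were named, either from the supplementary list of the study or by the RefSeq gene (GRCh38.p14) at the same position. The 749 named both ways had the same symbol in 747 cases and an older one in the other 2. Matching by Ensembl identifier had been planned, but the RefSeq table pairs none, so position was used. The strand of each peak came from the deposited list, and starts from RefSeq promoter windows of 250 bases before to 50 after each start, of which 750 members had one. Exons were not analysed here. Of the peak numbers, which run to 19231, 238 were not used here.

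Members, gene lists and comparisons were chosen with earlier results of these data known. Named genes were, among members with a symbol, the 8 largest and 5 smallest ratios with at least 1 RPM in input, the 6 highest in PRMT5 RIP, the 4 with the most peaks, the 4 widest margins between the ends in each direction, the 2 largest and the smallest ratio of each list, and PDCD1, PRMT5, WDR77 and GAPDH. Not every gene this rule gives is reported here, and the other genes named were chosen after their values were seen. Finding and ordering the members was tested on simulated data. Python 3.11.15, pandas 2.3.3 and numpy 2.4.6 were used. No test across replicates was made, because each group had 1 pooled value.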

Additional observations from a re-analysis of the deposited data

How the results depend on the processing

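No alternative turned the direction of a result below. At single peaks the sign could turn, since the deposited log2 fold change was above 0 at every member. The number of members went from 977 to 1763 with 3 or more peaks per gene, 265 with 6 or more and 627 with at least 0.5 RPM in input. The median log2 ratio of 1.48 became 1.56 at widths up to 1000 nt, 1.29 at a pseudocount of 0.1 RPM, 0.76 at 1 RPM, 2.37 by the deposited log2 fold change and 1.29 with at least 0.5 RPM in input. The share at 2-fold, 75.2%, became 72.4% without width limits and 68.3%, 34.1%, 97.2% and 66.2% under the last 4 of these. The share above the next peak, 74.9%, became 72.0% at a pseudocount of 1 RPM and 80.7% with at least 0.5 RPM in input. The share above the 3′-most peak, 74.0%, became 70.7% without width limits and 70.9% with 6 or more peaks. The share highest of the gene, 51.9%, became 56.7% with 3 or more peaks, 40.8% with 6 or more, 55.2% at a pseudocount of 0.1 RPM and 61.0% with at least 0.5 RPM in input. The share at a start, 87.7%, became 90.2% with at least 0.5 RPM in input, 75.5% within 100 nt and, in an alternative chosen after seeing the data, 76.3% with the ends of the RefSeq gene table as starts. The difference between members at a start and elsewhere, 0.37, ran from 0.11 to 0.51. The causes of these changes were not tested, beyond what each alternative's own construction fixes. No paired analysis was possible because the values are pooled over the libraries of each group, and for that reason no library could be left out. At 350 members with under 0.5 RPM in input, rounding to 0.01 RPM and the pseudocount limit the ratio.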

Other observations

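Neighbouring peaks of a gene had related enrichment. Across the 977 genes, the log2 ratios of the 5′-most and the next peak had Pearson's r = 0.46 (Spearman's rho = 0.45), and those of the 5′-most and the 3′-most peak r = 0.18 (rho = 0.17), all points coming from the same pooled libraries. The gap between the 5′-most and the next peak had a median of 300 nt (interquartile range 50 to 3080 nt). Members of 501 to 1000 nt had the highest median log2 ratio by width, 1.65 (149 peaks), and those of 2501 to 5000 nt had 1.29 (126 peaks), compared with 1.16 and 1.00 for all peaks of these widths. Of the members, 2 lay on the mitochondrial genome and 3 on the Y copy of a region that X and Y share, and leaving out these and members from pseudogenes, an alternative chosen after seeing the data, moved none of the 3 results it was run on.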
